A study of Mus musculus with 8 samples.

Results

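Regions of open chromatin that were found in every group except mice fed PLX chow are described here. Overlapping peaks of 8 ATAC-seq libraries were merged into 443327 union regions, and 77014 of them held a peak in each of the 6 libraries that were not from PLX chow. Members were the regions among these with no peak in either PLX chow library, which gave 1493 regions. They were therefore chosen by the PLX chow contrast itself, and their absence under PLX chow is their definition and not a result.

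PLX chow mice were C57Bl/6J mice that ate chow with a compound spelled PLX5562 in the labels, given from postnatal day 20 to postnatal day 32 to remove microglia. Control chow mice of the same strain ate chow made in parallel over the same days. For both diets the dLGN (dorsal lateral geniculate nucleus, a thalamic relay of vision) was microdissected at postnatal day 32. Fn14 KO mice, which lack the receptor for the cytokine TWEAK, and their Fn14 WT littermates were untreated. At postnatal day 27 they gave frozen coronal sections that held cortex, hippocampus and dLGN. Each of the 4 groups had 2 libraries, made from aliquots of 50000 nuclei by ATAC-seq, which reads out where the transposase Tn5 can reach the DNA. Control chow thus shares tissue, age and study arm with PLX chow, whereas the sections differ from PLX chow in tissue, age, freezing and diet. The labels do not say whether a library came from 1 animal, nor whether the knockout is confined to a cell type. All nuclei were mixed, so fewer nuclei of a cell type and less open chromatin per nucleus cannot be told apart.

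Microglia are the resident macrophages of the brain. They depend on signals through the CSF1 receptor, encoded by Csf1r, and drugs of the PLX class block this receptor. Their open chromatin is built around the ETS factor PU.1, encoded by Spi1, together with RUNX, IRF, MEF2 and C/EBP factors. In whole tissue they are a minority of nuclei, so their enhancers appear as small peaks beside those of neurons and glia.

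The lists held 248989 and 264136 peaks under PLX chow, 285771 and 267377 under control chow, 299822 and 299816 in Fn14 KO and 256323 and 261201 in Fn14 WT. Both KO lists therefore stopped near the authors' limit of 300000, and the weakest peak had a −log10 p of 2.85 in KO 1 and 2.05 in KO 2, against 2.0 in the other libraries. No read counts were used, so sequencing depth is unknown. Regions at thalamic neuron genes were 0.306% and 0.293% of all regions near genes under PLX chow and 0.294% and 0.306% under control chow. In KO they were 0.290% and 0.230%, and in WT 0.258% and 0.249%. All dLGN shares were thus above those of the sections, but KO 1 was close and held the most such regions, 493. The sections also hold dLGN, so these shares are no check on the dissection. All −log10 p and fold enrichment values are the authors' own per peak and are comparable within a list only. A percentile below is the rank of a region's highest −log10 p within its own list, with 100 for the strongest.

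Members were 1.94% of the 77014 regions. Another 4156 regions (5.40%) had a peak in 1 PLX chow library, namely 1497 in PLX chow 1 and 2659 in PLX chow 2, and 71365 (92.7%) had one in both. The same rule applied to the other groups gave 404 regions without a control chow peak (0.547% of 73826), 1586 without an Fn14 KO peak (2.0% of 79105) and 1726 without an Fn14 WT peak (2.17% of 79505). The number for PLX chow was thus above that for control chow and below those for both section groups. With every list reduced to its strongest 248989 peaks, the shares were 1.45% for PLX chow, 0.683% for control chow, 2.96% for KO and 1.55% for WT. PLX chow then still lay above control chow and below both section groups, while KO and WT changed places. Leaving out 1 of the dLGN libraries changed the number of members by construction, to 2995 without PLX chow 1, 4161 without PLX chow 2, 2919 without control chow 1 and 3652 without control chow 2.

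The promoter sequences of 5 genes at members hold letters of motifs that myeloid factors are known to read, and they are printed because each overlaps a region without a PLX chow peak. They are reference sequences from RefSeq on GRCm38.p6 (the mm10 build), run from 250 bases before to 50 after a transcript start given by RefSeq, and are written in the direction of the gene. For Hpgds that start lies inside the gene, whose interval ends at position 65144981, so that its whole window is within the annotated gene. Capitals mark GAGGAAGT (an ETS and PU.1 core) in Hpgds, Samsn1 and Traf3ip3, TGANTCA (AP-1) in Trem2 and TGTGGTT (RUNX) in Arhgap30, on either strand. The windows are chr6:65144681-65144980 on the minus strand for Hpgds, chr16:75909217-75909516 on the minus strand for Samsn1, chr1:193201497-193201796 on the minus strand for Traf3ip3, chr17:48346151-48346450 on the plus strand for Trem2 and chr1:171388710-171389009 on the plus strand for Arhgap30. Samsn1, Traf3ip3 and Arhgap30 were chosen after their values were seen. Not printed are promoters at members of Cfap126, Gm40860 and Isg20 with the RUNX letters and of Gm36101 with the AP-1 letters. Most promoters at members, among them those of Plek and Fermt3, held none of the ETS, AP-1 or RUNX letters. Letters of other motifs are not marked. Hpgds and Trem2 also hold C/EBP letters. Bank1, whose promoter is not printed, holds C/EBP, IRF and MEF2 letters, and further promoters at members not named here hold C/EBP or IRF letters.
Hpgds: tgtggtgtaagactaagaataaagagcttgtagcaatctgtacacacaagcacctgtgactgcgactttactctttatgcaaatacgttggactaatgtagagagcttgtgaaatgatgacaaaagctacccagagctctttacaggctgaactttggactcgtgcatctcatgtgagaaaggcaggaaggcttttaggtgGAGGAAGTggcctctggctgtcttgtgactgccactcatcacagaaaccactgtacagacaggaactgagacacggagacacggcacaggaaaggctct
Samsn1: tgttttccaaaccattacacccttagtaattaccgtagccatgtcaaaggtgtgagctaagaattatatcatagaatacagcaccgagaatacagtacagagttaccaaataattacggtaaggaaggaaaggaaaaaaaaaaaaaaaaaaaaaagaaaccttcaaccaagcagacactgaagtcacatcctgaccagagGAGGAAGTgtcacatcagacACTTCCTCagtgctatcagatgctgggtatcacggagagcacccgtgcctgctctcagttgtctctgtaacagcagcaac
Traf3ip3: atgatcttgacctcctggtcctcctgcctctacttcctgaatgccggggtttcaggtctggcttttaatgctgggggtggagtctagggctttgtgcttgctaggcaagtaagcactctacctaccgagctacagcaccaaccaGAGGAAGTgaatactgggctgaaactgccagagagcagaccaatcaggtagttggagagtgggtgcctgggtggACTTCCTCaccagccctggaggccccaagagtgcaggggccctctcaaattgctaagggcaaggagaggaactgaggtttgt
Trem2: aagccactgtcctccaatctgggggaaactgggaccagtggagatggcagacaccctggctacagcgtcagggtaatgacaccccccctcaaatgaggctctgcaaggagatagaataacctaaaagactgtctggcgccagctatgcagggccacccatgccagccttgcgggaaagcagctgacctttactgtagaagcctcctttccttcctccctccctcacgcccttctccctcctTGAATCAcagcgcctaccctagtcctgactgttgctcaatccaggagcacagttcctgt
Arhgap30: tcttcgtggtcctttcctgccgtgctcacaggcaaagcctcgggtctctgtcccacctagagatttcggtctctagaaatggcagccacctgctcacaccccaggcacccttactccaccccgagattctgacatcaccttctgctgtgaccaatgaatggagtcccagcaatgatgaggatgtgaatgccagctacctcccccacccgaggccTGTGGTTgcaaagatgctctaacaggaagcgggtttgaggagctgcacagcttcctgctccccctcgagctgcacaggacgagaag

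In Hpgds the ETS core began at position −49, counted from that transcript start. Samsn1 held it at −50 and, on the other strand, at −30, and Traf3ip3 at −106 and, on the other strand, at −32. The AP-1 match in Trem2 began at −9 and the RUNX match in Arhgap30 at −36. In all, 51 promoters of 49 genes overlapped a member. The ETS core stood in 3 of the 51 (5.88%), against 3.20% of all 32851 promoters, 2.45% of the 15599 promoters that overlapped any of the 77014 regions, and 3.71% of the 701 that overlapped one with a weak control chow peak (percentile of at most 50 in at least 1 of both lists). RUNX letters stood in 4 (7.84%), against 5.27% of all promoters, 3.35% at any of the 77014 regions and 4.14% at weak ones. AP-1 letters stood in 2 (3.92%), against 7.81%, 4.73% and 8.56% in the same order. A GC box (GGGCGG), the motif of many housekeeping promoters, stood in 11 (21.6%), against 35.7% of all promoters, 62.1% of those at any of the 77014 regions and 38.1% of those at weak ones. Their median GC content was 54.7%, against 61% for promoters at any of the 77014 regions and 55.0% at weak ones. The other 8 motifs searched, on both strands, were CRE (TGACGTCA, in 0 of the 51, against 1.79% of all promoters), C/EBP (TTGCNNAA, 11.8% against 10.8%), an E-box (CAGCTG, 19.6% against 16.3%), IRF (GAAANNGAA, 9.80% against 8.56%), MEF2 (1.96% against 3.69%), SOX (ACAAAG, 17.6% against 18.7%), the NFI core (TTGGC, 33.3% against 46.7%) and NF-kB (GGGANNTCC, 7.84% against 4.30%). Matches of different motifs may overlap. These shares rest on few promoters and a match is only a description of letters.

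Members were weak peaks in the dLGN and middling peaks in the sections. Their median −log10 p was 5.54 and 5.00 in control chow 1 and 2, 10.9 and 9.59 in KO 1 and 2, and 8.28 and 7.14 in WT 1 and 2. The 77014 regions as a whole had medians of 36.2 and 29.0 in control chow, 23.9 and 19.7 in KO, and 18.5 and 15.0 in WT. As fold enrichment, members had medians of 2.53 and 2.45 in control chow, 3.51 and 3.42 in KO, and 3.28 and 3.27 in WT. In percentiles the members' medians were 29.9 and 28.8 in control chow, 60.4 and 61.2 in KO, and 55.2 in both WT libraries, while the 77014 regions had medians between 77.6 and 80.3 in these 6 libraries.

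**Figure D1:**
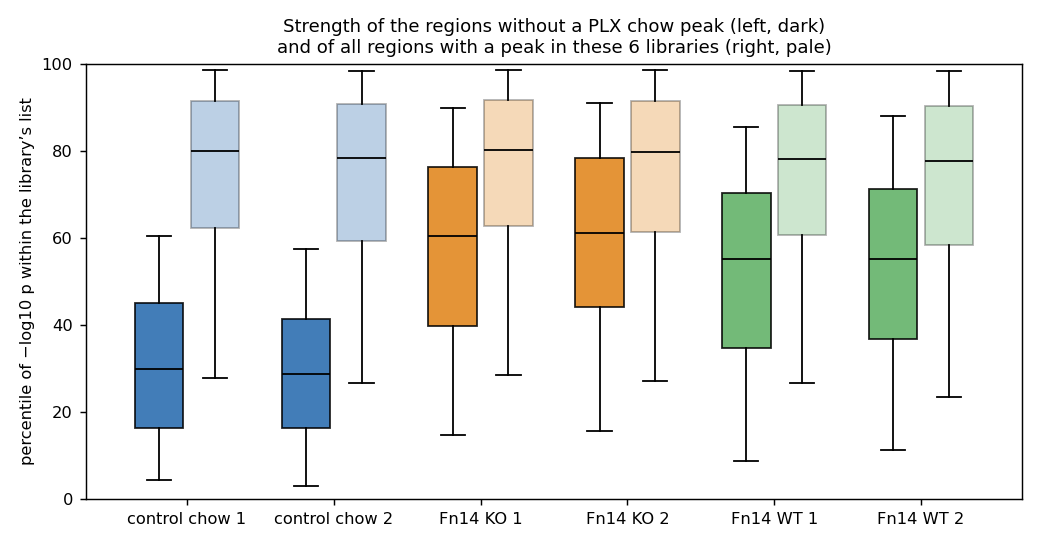
Percentile of −log10 p within each library's own list (vertical axis, 0 to 100) for the 1493 regions without a PLX chow peak (left, dark) and all 77014 regions with a peak in the 6 libraries shown (right, pale). Boxes span the quartiles, lines the medians, whiskers the 5th to 95th percentile of regions; the dark medians are near 30 in control chow (29.9 and 28.8) and between 55.2 and 61.2 in the sections.

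The share of regions without a PLX chow peak depended on how strong the region was under control chow. Of regions whose lower control chow percentile was at most 10, 20.9% had no PLX chow peak and 34.9% had one in 1 PLX chow library. Between percentiles 40 and 50 the share without a peak was 2.60%, and between 60 and 70 it was 0.222%. None of the 45158 regions above percentile 70 in both control chow lists was a member, so every region that was strong in both control chow libraries kept a peak in at least 1 PLX chow library. In all, 1411 of the 1493 members (94.5%) had a control chow percentile of at most 50, against 21.1% of all 77014 regions, and within that weak class of 16219 regions the share of members was 8.70%. Set against strength in the sections, which entered the rule only as presence of a peak, the share also fell with strength. It was 5.76% at a lowest section percentile of at most 10, 2.81% between 40 and 50, and 0.130% above 90.

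**Figure D2:**
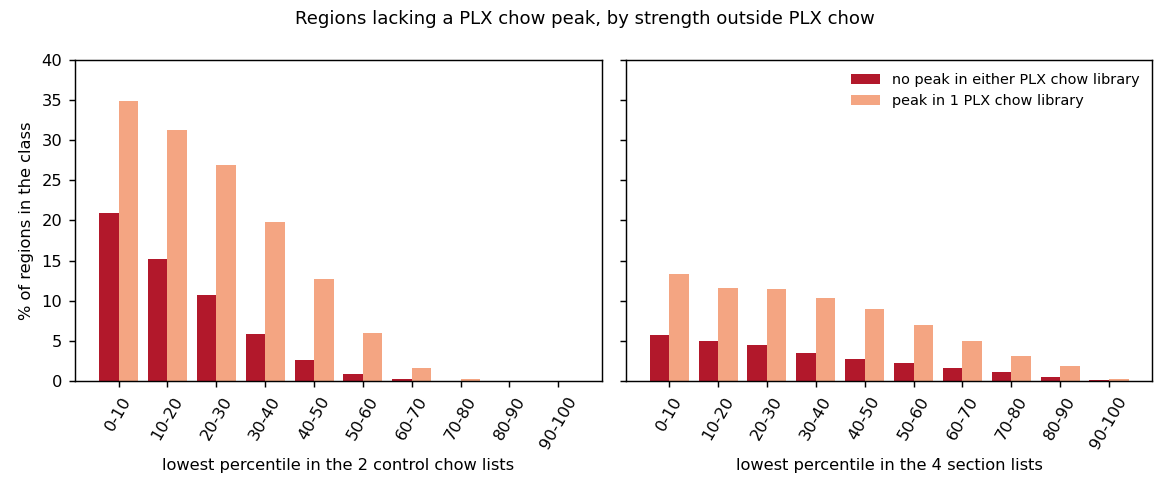
Share of regions (vertical axis, %) with no peak in either PLX chow library (dark) or with a peak in 1 of them (pale), by class of the lowest percentile in the 2 control chow lists (left panel) and the 4 section lists (right panel). The dark bars fall to 0 above percentile 70 in control chow and to 0.130% above percentile 90 in the sections.

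By rank, many members stood higher in sections than in control chow dLGN, but few stood high in the sections. In 712 members (47.7%) all 4 section percentiles were above both control chow percentiles, against 22.2% of the 77014 regions and 37.7% of the weak class. The opposite order was seen in 18 members (1.21%) and in 23.3% of the 77014 regions. All 4 sections ranked 84 members (5.63%) in the upper 20% of their lists, against 26790 (34.8%) of all 77014 regions, and 20 members (1.34%) in the upper 10%, against 15395 (20.0%). The rule asks for absence from both PLX chow libraries, which are also dLGN, and so favours regions that are weak in dLGN. This selection and the joint differences in tissue, age and freezing cannot be told apart here.

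A few members lay well above the peak threshold in all 6 libraries, though by rank none was strong under control chow, where the lower of both percentiles was at most 67.4. The lowest −log10 p over the 6 libraries had a median of 3.48, against 10.2 for all 77014 regions. It reached 5 or more in 285 members and 10 or more in 7, and was at most 15.5. The member with the highest such value lay 41332 bp from Man1a, a mannosidase of N-glycan trimming, with 29.7 and 16.5 in control chow, 15.8 and 17.8 in KO, and 19.1 and 15.5 in WT. A region in Mtmr12, an adaptor of the myotubularin lipid phosphatases, had 13.4 and 14.6 in control chow, 13.4 and 25.5 in KO, and 25.4 and 14.9 in WT. In Tnks1bp1, a tankyrase-binding protein, the values were 14.6 and 16.9 in control chow, 26.1 and 26.1 in KO, and 30.1 and 13.3 in WT. These 3 regions were thus well above the weakest peak of every list in which they appear.

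Of the other 9 among the 12 members with the highest such values, Olfr111 (an olfactory receptor gene, 944 bp away), Dscaml1 (a cell adhesion molecule), Col5a2 (a collagen chain), Nkx2-1 (a transcription factor of the ventral forebrain, 35442 bp away) and Cplx2 (complexin, which acts in vesicle release, 35133 bp away) were neighbours outside the myeloid lists. Siglech and Csf1r, both microglial genes, were also among the 12, and 2 regions had no protein-coding gene within 50 kb. The Col5a2 region ranked higher in the sections, with percentiles of 61.2 and 55.7 in control chow, 95.5 and 97.4 in KO, and 92.8 and 96.6 in WT. Its −log10 p was 14.4 and 10.6 in control chow, 85.5 and 109 in KO, and 52.1 and 80.3 in WT. Tissue, age and freezing differ together between these libraries.

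Regions at microglial genes made up 12 of the members. Each region was assigned to the nearest protein-coding gene within 50 kb. Of the 145 regions at 38 of the 50 listed microglial genes, 12 (8.28%) at 9 genes were members, against 1208 of 64471 regions (1.87%) at all genes. By the same rule, 1 of 128 regions of this list (0.781%) was absent from control chow, 3 of 136 (2.21%) from KO and 4 of 136 (2.94%) from WT. Within the weak class, 10 of 36 microglial regions (27.8%) were members, against 8.59% of the 13336 weak regions at all genes. Most microglial regions nevertheless had a peak in both PLX chow libraries, namely 123 of the 145 (84.8%). This share was below the 92.8% of regions at all genes. The list holds genes that earlier results of these data had brought up, so its share is a description with no test. The microglial share was 4.27 times that of all 77014 regions, and 2.48 times without PLX chow 1, 2.55 times without PLX chow 2 and 2.84 times without control chow 2. Without PLX chow 2 and without control chow 2 the microglial share itself was 13.8% and 12.6%. Without the 2 genes with several members, P2ry12 and Siglech, it was 5.11%.

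**Figure D3:**
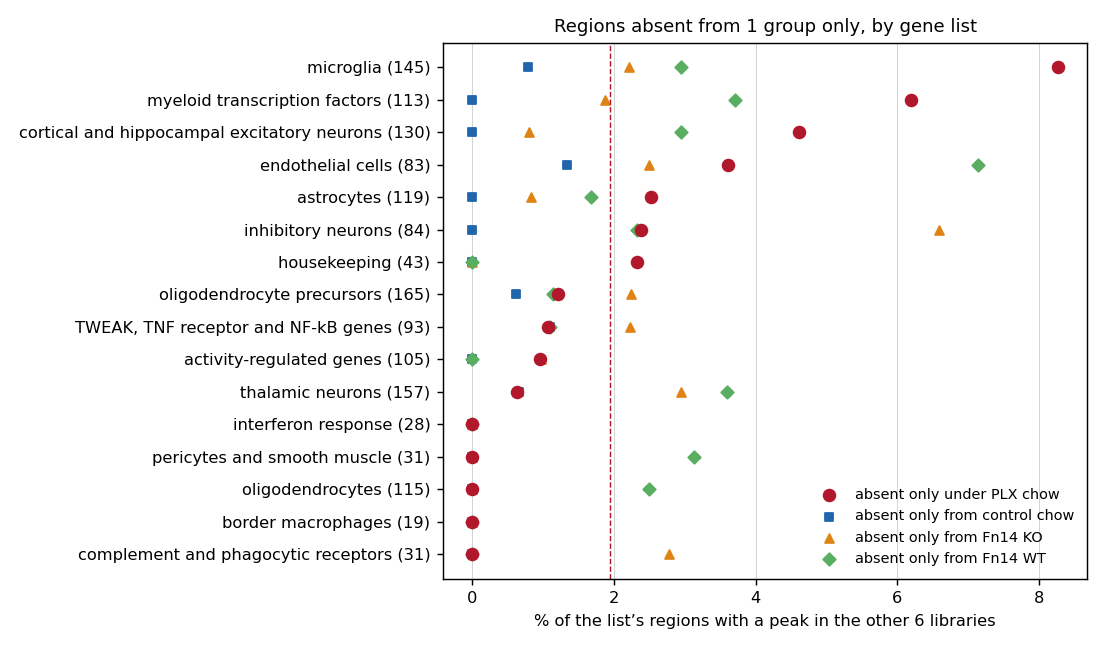
Share of each list's regions absent from 1 group only (horizontal axis, %), with circles for PLX chow, squares for control chow, triangles for Fn14 KO and diamonds for Fn14 WT; brackets give the regions per list in the PLX chow contrast, and the dashed line is the share of members in all 77014 regions (1.94%). Markers at the same value cover each other; microglia (8.28%) and myeloid transcription factors (6.19%) lie farthest right for PLX chow.

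Counted over all deposited regions near genes, those at microglial genes were 258 and 286 under PLX chow, 328 and 307 under control chow, 390 and 371 in KO, and 324 and 315 in WT. As a share of all regions near genes these were 0.186% and 0.197% under PLX chow, 0.212% and 0.207% under control chow, 0.229% and 0.223% in KO, and 0.226% and 0.218% in WT. Both PLX chow values were the lowest of the 8 on each scale, and these counts include the members, which lack a PLX chow peak by the rule. Over all 8 libraries the other myeloid lists did not separate in this way, since section values overlapped those of PLX chow. Against control chow alone, however, both PLX chow libraries were lower for each of these lists, in count and in share. The shares of oligodendrocyte, inhibitory neuron, interferon response and housekeeping genes were also lower in both PLX chow libraries than in both control chow libraries. Myeloid transcription factors had 238 and 245 regions under PLX chow, 280 and 275 under control chow, 307 and 318 in KO, and 239 and 255 in WT. Complement and phagocytic receptor genes had 75 and 78 under PLX chow, 90 and 88 under control chow, 74 and 84 in KO, and 73 and 77 in WT. Border macrophage genes had 62 and 58 under PLX chow, 71 and 71 under control chow, 47 and 56 in KO, and 43 and 57 in WT. As shares, myeloid factors had 0.172% and 0.168% under PLX chow, against 0.181% and 0.186% under control chow. Complement genes had 0.0541% and 0.0536% against 0.0582% and 0.0594%, and border macrophage genes 0.0447% and 0.0399% against 0.0459% and 0.0480%. At 43 of the 50 genes a PLX chow library still had a region. Arhgap45, Cd33, Cd68, Ctss, Gpr34, Itgam and Tyrobp had none in either PLX chow library, and of these Cd33, Ctss, Gpr34 and Tyrobp had none in either control chow library either.

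The receptors came first among the microglial members. In Csf1r, at chr18:61108359-61109129 inside the gene, −log10 p was 13.1 and 13.8 in control chow, 12.8 and 15.4 in KO, and 11.9 and 9.81 in WT, with fold enrichments between 3.68 and 4.08. It was the 1 region of the 77014 at Csf1r. P2ry12, the ADP receptor that guides microglial processes, held 3 members of its 5 regions. They lay at chr3:59219980-59220364, chr3:59228719-59229438 and chr3:59260758-59261229, all inside the gene, which itself sits within Med12l. At the middle one −log10 p was 9.58 and 5.78 in control chow, 19.1 and 22.2 in KO, and 12.7 and 9.96 in WT. The other 2 regions of P2ry12 kept peaks in all 8 libraries. At its promoter (chr3:59262627-59263066) −log10 p was 76.3 and 64.9 under PLX chow, 137 and 78.3 under control chow, 16.0 and 15.3 in KO, and 21.0 and 23.8 in WT. One gene thus had regions with and without a PLX chow peak. Those with one were the strongest of the 5 in both control chow libraries, which did not hold for the promoter in KO.

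**Figure D4:**
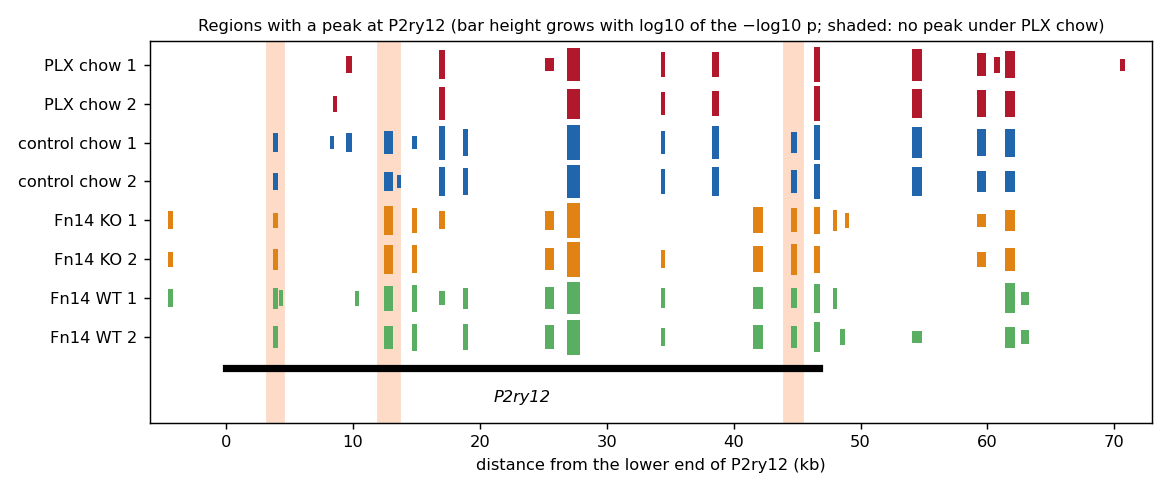
Regions with a peak around P2ry12 (horizontal axis, kb from the lower end of the gene, black bar) in each library (rows, PLX chow on top), with bar height growing with the log10 of the −log10 p and narrow regions drawn wider than to scale so that they can be seen. Shading, widened by a margin, marks the 3 regions with no peak in either PLX chow row and a peak in each of the other 6.

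Siglech, a sialic-acid-binding lectin of microglia, was nearest to 2 members, at 5306 and 23465 bp. The closer one (chr7:55784415-55785093) had −log10 p of 11.2 and 11.3 in control chow, 31.5 and 11.4 in KO, and 13.9 and 14.2 in WT. The farther one (chr7:55744191-55745186) had 6.12 and 10.6 in control chow, against 25.4 and 38.6 in KO and 43.6 and 38.1 in WT. Trem2, a lipid receptor with an activating adaptor, was a member at its promoter (chr17:48346182-48347197), with 4.26 and 3.47 in control chow, 6.68 and 11.4 in KO, and 3.50 and 4.80 in WT. That region was close to the threshold in control chow. In Mertk, a receptor for the uptake of dying cells (chr2:128796546-128796901), the values were 3.04 and 4.75 in control chow, 2.85 and 4.05 in KO, and 5.49 and 4.80 in WT.

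The other microglial members described were at genes of an enzyme and of signalling proteins. The promoter region of Hpgds, a prostaglandin D synthase (chr6:65144495-65145407), had 6.62 and 6.19 in control chow, 11.6 and 12.1 in KO, and 7.2 and 7.14 in WT. Dock8, an activator of the GTPase Cdc42 (chr19:25074792-25075185), had 5.63 and 9.45 in control chow, 28.0 and 14.1 in KO, and 15.4 and 9.78 in WT. Abi3, an actin regulator (chr11:95834038-95834726), had the lowest values, 2.67 and 2.05 in control chow, 7.88 and 2.73 in KO, and 5.37 and 4.27 in WT.

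Myeloid transcription factors gave 7 members of 113 regions (6.19%), at 6 of 21 genes, against the 1.87% at all genes. Weak regions were 32.7% of this list, against 20.7% at all genes, so the raw share also reflects peak strength. Within the weak class 7 of 37 regions (18.9%) were members, against 8.59% at all genes. In Spi1 (chr2:91082771-91083314, inside the gene) −log10 p was 6.12 and 3.08 in control chow, 7.71 and 7.76 in KO, and 6.20 and 4.81 in WT. Batf3, an AP-1 family factor, had 4.93 and 4.52 at 4732 bp from the gene in control chow, against 37.8 and 31.6 in KO and 11.6 and 13.9 in WT. Etv6, an ETS repressor (chr6:134157601-134158088), had 7.68 and 11.3 in control chow, 23.6 and 15.6 in KO, and 16.5 and 9.96 in WT. Fli1, another ETS factor that is also made in endothelium, held 2 members, and Irf5 and Mef2a held 1 each, with control chow values between 3.04 and 4.91. Irf8, Runx1, Ikzf1 and Cebpa held no member among their 2, 5, 2 and 2 regions. At the 1.87% over all genes so few regions would hold about none, so this says nothing particular about these genes.

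**Figure D5:**
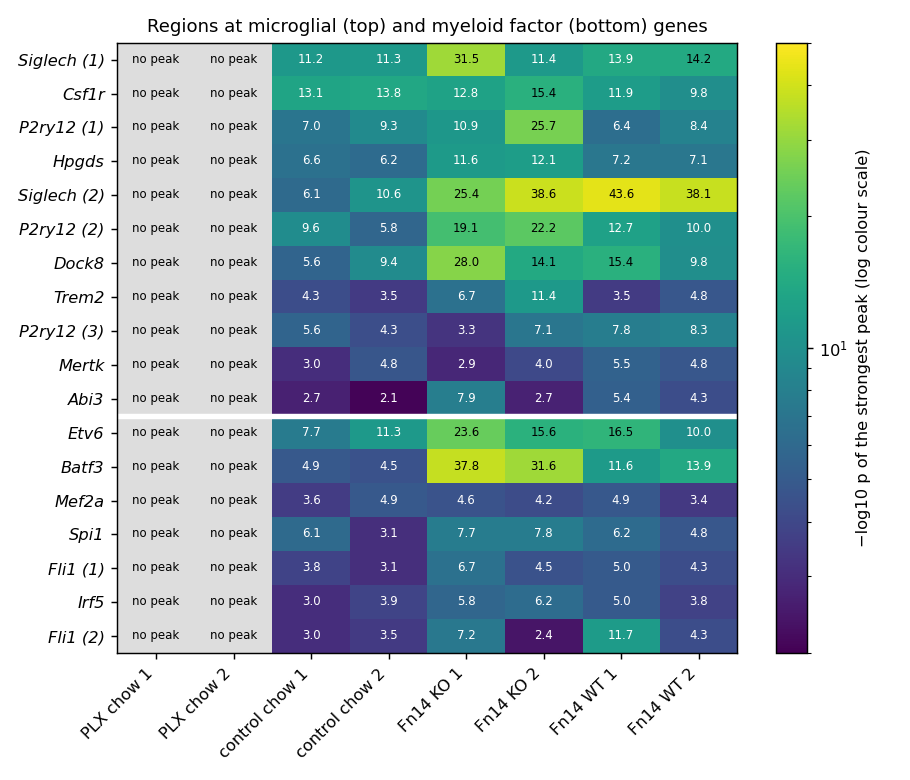
−log10 p of the strongest peak (colour, log scale, value printed in each cell) at 11 of the regions near microglial genes (top) and 7 near myeloid factor genes (bottom), by library, with numbers in brackets for several regions of a gene. Grey cells have no peak; the control chow values run between 2.05 and 13.8.

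The 31 regions at complement and phagocytic receptor genes and the 19 at border macrophage genes held 0 members each. At the 1.87% seen over all genes, lists this small would hold about none, so these counts say nothing particular about either list. Cx3cr1, the fractalkine receptor of microglia, kept all 3 of its regions, too few to say anything particular about the gene. At the one inside the gene −log10 p was 12.7 and 25.2 under PLX chow, 11.2 and 16.6 under control chow, 9.64 and 15.6 in KO, and 11.7 and 11.9 in WT. Tmem119, a microglial surface gene, had none of the 77014 regions, since control chow 1 had 0 regions there. Each PLX chow library had 1.

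Among other brain cell types the cortical and hippocampal excitatory neuron list had the next largest share, 6 of 130 regions (4.62%). Weak regions were 30.8% of this list, against 20.7% at all genes. Within the weak class its share was 6 of 40 (15.0%), against 8.59% at all genes. In Fezf2, a factor of deep cortical layers, −log10 p was 5.15 and 9.28 in control chow, 5.88 and 15.8 in KO, and 10.1 and 14.3 in WT, and in Zbtb20, a hippocampal factor, 5.63 and 7.75, 6.14 and 8.86, and 7.2 and 12.7 in the same order. Thalamic neurons had 1 of 157 (0.637%), a region in Rora, with 8.23 and 5.21 in control chow, 21.2 and 12.4 in KO, and 8.24 and 12.9 in WT. Inhibitory neurons had 2 of 84 (2.38%), near Nkx2-1 and Npy, oligodendrocyte precursors 2 of 165 (1.21%), both in Tnr, and oligodendrocytes 0 of 115. Only 9 of the oligodendrocyte regions (7.83%) were weak, so few could be members. By the same rule inhibitory neuron regions were absent from KO in 6.59%, against 1.69% of regions at all genes. Endothelial regions were absent from WT in 7.14%, against 2.15% at all genes. These were the highest list shares of the KO and WT contrasts. They were above the 6.19% of myeloid transcription factors in the PLX chow contrast and below the 8.28% of the microglial list.

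Astrocytes gave 3 of 119 regions (2.52%) and endothelial cells 3 of 83 (3.61%). In Slc1a2, the main glutamate transporter of astrocytes, −log10 p was 4.96 and 7.10 in control chow, against 61.4 and 43.7 in KO and 33.1 and 40.0 in WT. Slc1a3, its relative, had 17.2 and 6.19 in control chow, 10.3 and 7.11 in KO, and 6.76 and 13.1 in WT. Erg, an endothelial ETS factor, was 18889 bp from a member with 15.1 and 8.31 in control chow, 18.1 and 11.4 in KO, and 9.05 and 5.93 in WT. In Cdh5, the endothelial cadherin, the 6 values ran between 5.41 and 7.90.

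Signalling and control lists were near the background. Activity-regulated genes had 1 of 105 regions, near Arc, and housekeeping genes 1 of 43, near Ywhaz. The list of genes around TWEAK, TNF receptors and NF-kB had 1 of 93 (1.08%), 14021 bp from Nfkbia, an NF-kB inhibitor, with 9.61 and 3.88 in control chow, 9.77 and 3.60 in KO, and 8.07 and 4.30 in WT. Pericytes and smooth muscle (31 regions) and interferon response genes (28 regions) had 0. Tnfrsf12a, which encodes Fn14, had 1 region in each PLX chow, control chow and WT library and 0 in both KO libraries. The rule asks for a peak in both KO libraries, so this gene could have none of the 77014 regions. Tnfsf12, which encodes TWEAK, kept both of its regions.

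By position, members were narrow and mostly away from promoters. Their median width was 545 bp, against 772.5 bp for all 77014 regions and 639 bp for the weak class. They lay inside a gene in 59.1% of cases, against 59.7% and 60.9%. Within 1 kb of a gene end there were 79 (5.29%), against 16.9% of all regions and 5.41% of the weak class, and over 50 kb from any gene 19.1%, against 16.3% and 17.8%. Promoters overlapped 49 of the 1430 members outside chromosome 18 (3.43%), against 16.2% of all regions and 3.85% of the weak class. In these positions members thus resembled weak regions in general.

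The 5 strongest members within 1 kb of a gene end were at Olfr111, Thbs3, Gm27021, Calhm2 and Tspo. Tspo, the mitochondrial protein used to image glia, was 635 bp from a member with −log10 p of 9.36 and 6.19 in control chow, 31.4 and 19.4 in KO, and 23.6 and 18.3 in WT. Thbs3, a thrombospondin of the matrix, had 15.8 and 16.4 in control chow, 33.8 and 12.6 in KO, and 7.63 and 16.9 in WT. Calhm2, an ion channel subunit, had 6.62 and 6.23 in control chow, against 50.9 and 23.3 in KO and 9.60 and 17.1 in WT.

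The remaining promoters whose sequences are printed belong to 3 genes picked, after the values were seen, from those with a motif match. Other promoters with a match were not printed. Samsn1, an adaptor of haematopoietic cells, had 7.68 and 19.5 in control chow, 21.2 and 8.26 in KO, and 20.2 and 3.77 in WT. Traf3ip3, an adaptor of lymphocytes, had 10.5 and 7.22 in control chow, 8.41 and 6.56 in KO, and 7.80 and 5.93 in WT. Arhgap30, a GTPase-activating protein, ran between 3.61 and 5.36 in the 6 libraries.

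Members lay at many genes and on every chromosome but Y. At 961 of the 1075 genes with a member there was 1, at 96 there were 2, at 17 there were 3, and Dock4, an activator of the GTPase Rac, had 4 of its 38 regions. Of the 17, those with the largest share of their regions were P2ry12 (3 of 5), Col5a2 (3 of 7), Trim44 (3 of 10) and Slc39a10, a zinc importer (3 of 13). Another member lay within 50 kb of 150 members (10.0%). The nearest PLX chow peak was a median of 2294 bp away, within 500 bp at 240 members (16.1%) and over 10 kb away at 160. These neighbour and distance values were taken for members only, so whether they differ from other regions was not tested. By chromosome the share ran from 0.617% on X (9 of 1458) to 2.56% on 15 (85 of 3315), apart from 0 of 4 regions on Y.

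At the threshold the values met. The members with the lowest value in any library were near Apold1, in Dennd5a and near Hs3st2, with −log10 p of 2.0 in control chow 1 for all 3. The regions just outside were in Ank3, Dock10 and Syt1, whose single PLX chow peak had −log10 p of 2.02, 2.04 and 2.04 in PLX chow 2. Dock10 had 11.2 and 3.08 in control chow, 58.0 and 70.4 in KO, and 25.4 and 19.6 in WT, so that a region outside the set could be stronger than most members.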

How the data were processed

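ATAC-seq peaks were called by the authors in each library separately, on genome build mm10 per the submitters' processing notes. The names of the deposited lists record trimmed reads, duplicates and mitochondrial DNA taken out, a Tn5 step, a p threshold of 0.01, at most 300000 peaks and a last filter. deepTools 3.5.0 is named in those notes for no stated step, and aligner and peak caller were not given in the sources used here. Per peak the deposited values are a score, a fold enrichment (ratio), −log10 of a p-value and −log10 of a q-value. Such p-values rank peaks within a list and depend on depth, which is unknown.

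Peaks of the 8 libraries were merged where they overlapped by 1 bp or more, and a region kept the highest −log10 p per library. Regions were assigned by centre to the closest among 21900 coding genes (GRCm38.p6, no strand) within 50 kb. 16 gene lists with 340 genes were used, of which 339 matched by symbol. Members and lists were chosen with earlier results of these data known, and no test was run. Python 3.11.15 with pandas 2.3.3 and numpy 2.4.6 was used, and the merging was tested on simulated data. Motifs were searched in promoters only, and 12 were counted.

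Genes named are those of the 12 members with the highest lowest −log10 p, all members at the 4 myeloid lists, the top 2 of every other list, the 5 strongest within 1 kb of a gene end, the 5 genes with most members (ties by the share of their regions), 3 regions just inside and 3 just outside the threshold, and 6 genes whatever their values. Some genes that the rule names are left out of the text and of the plots by gene, though they stay in all counts. Alternatives changed the merging, the presence threshold, list length, gene assignment or the libraries used.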

Additional observations from a re-analysis of the deposited data

How the results depend on the processing

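Some alternatives merged peaks within 100 bp or reduced peaks to 200 bp around summits. In others, presence in the 6 libraries not from PLX chow needed a −log10 p of 3 or a q-value of 0.05. Any PLX chow peak still counted there. Further ones gave all lists equal length, allowed no PLX chow peak within 500 bp, or used only autosomes. The stricter presence, the 500 bp window and the autosomes could only take members away. In all these settings the number of regions without a PLX chow peak was between 1040 and 1881. As a share of regions with a peak in the other 6 libraries it was 1.51% with a −log10 p of 3, 1.52% with the q-value, 1.45% with equal lengths and 1.63% with the 500 bp window, and 8.70% among weak regions (an alternative added after seeing the data). Leaving out 1 library gave 1623 to 4161 regions and 1.99% to 5.40%. The highest number came without PLX chow 2. Without PLX chow 1 it was 2995, without control chow 1 2919 and without control chow 2 3652, by construction, since fewer libraries had to lack or hold a peak.

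For microglial genes the share was 5.11% to 13.8% in all alternatives but the weak class, where it was 27.8%. Leaving out 1 library gave 7.79% to 13.8%. The lowest value, 5.11%, came without P2ry12 and Siglech and the value was 7.36% with the myeloid factors added, both chosen after seeing the data. Set against the share at all regions, microglial genes were 4.27 times as often absent, and 2.48 times without PLX chow 1, 2.55 times without PLX chow 2 and up to 4.72 times elsewhere. Between 9 and 12 of the 12 microglial regions were still absent in each setting where they were counted. Leaving out 1 library relaxes the rule and kept all 12, so it is no check on these regions. The number was 10 with the −log10 p of 3 or the q-value, 11 with the 500 bp window and 9 with equal lengths. With equal lengths, added after seeing the data, the shares for the other groups were 0.683% for control chow, 2.96% for KO and 1.55% for WT. No paired analysis was possible because the result comes from no test. What depth limits is unknown, since no counts were used. A missing peak is a peak below the threshold and does not show closed chromatin.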

Other observations

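Some members were among the strongest peaks of the sections while weak in the control chow dLGN, and the 5 with the highest lowest section value were picked after their values were seen. One had no gene within 50 kb (chr15:10840085-10841277) and −log10 p of 3.83 and 3.47 in control chow, 92.6 and 109 in KO, and 85.7 and 90.9 in WT. Another lay 41156 bp from Mllt3, a chromatin reader, with 7.14 and 4.11 in control chow, 138 and 112 in KO, and 72.6 and 85.0 in WT. The other 3 had no protein-coding gene within 50 kb.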
